A study of Mus musculus with 2 samples.

Results

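The circadian clock genes examined here were the 10 core clock genes Clock, Arntl, Per1, Per2, Per3, Cry1, Cry2, Nr1d1, Nr1d2 and Dbp, among 20653 named genes on the arrays. They were taken from the probes whose accession belongs to these genes in the NCBI mouse annotation, which gave 11 probes. Dbp had 2 probes and every other gene had 1 probe. All 11 probes were well above background on both arrays, so each member passed the filter on dim signals without the help of a single array.

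MIN6 is a mouse beta cell tumor line, and RNA came from whole cultures. The cells were between passages 15 and 20 and grew in medium with 15% fetal bovine serum. At a density near 50% confluence, some 18 h after plating, they received lentivirus made from the vector pLVX-IRES-ZsGreen that carried mouse FTO (the array labelled FTO) or from the same vector without an insert (the array labelled control). Green fluorescence of the cultures was looked at 48 h after transduction. Both cultures therefore received the ZsGreen vector, and the share of cells that took it up is not given in the sources used here. FTO is an enzyme that removes methyl groups from RNA and single-stranded DNA. There was 1 one-color Agilent array per condition, both on the same slide and from the same scan. The differences below therefore have no replicate check, and they carry neither a p-value nor a standard error. The hour of RNA collection, the time since the last change of medium and the glucose level at collection are not given in the sources used here.

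The circadian clock is a feedback loop of transcription that runs in most mammalian cells, beta cells included. CLOCK and BMAL1 (the protein of Arntl) bind as a pair to E-box sequences and activate the Per and Cry genes, whose proteins then return to the nucleus and repress that pair. A further loop runs through Nr1d1 and Nr1d2, which encode the nuclear receptors REV-ERBα and REV-ERBβ and repress Arntl, while ROR receptors compete for the same sites and activate it. Dbp is an output gene of the loop and encodes a factor that binds D-box sequences. In pancreatic islets the clock is known for its role in the timing of insulin secretion, and in cultured cells fresh serum can set its phase.

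Promoter sequence is shown first, because activation at E-boxes and repression at ROR elements tie these genes into 1 loop. The RefSeq promoter table of the assembly GRCm38.p6 held 9 of the 10 members, and windows ran from 250 bases before each annotated start to 50 bases after it. Both strands were searched for 5 motifs, which were the E-box CACGTG, the variant E-box CACGTT, the D-box core TTANGTAA, the ROR element core TAGGTCA and the cAMP response element TGACGTCA. The variant E-box reads AACGTG on the other strand. No match overlapped another. The bases before the start are printed 5′ to 3′ on the strand of the gene, with matches in capitals. Per1 (chr11:69098699-69098948, plus strand) holds an E-box 166 bases before 1 of its 2 annotated starts. Cry1 (chr10:85185055-85185304, minus strand) holds an E-box 60 bases and a variant E-box 79 bases before its start. Nr1d1 (chr11:98775378-98775627, minus strand) holds a variant E-box at 28 bases, Per3 (chr4:151044666-151044915, minus strand) holds 2 D-box cores at 205 and 158 bases, and Dbp (chr7:45704997-45705246, plus strand) holds none of the 5 motifs in this window. Nr1d1 and Dbp are shown because they had the lowest values among the members, and Per1, Cry1 and Per3 for the motifs they hold.
Per1: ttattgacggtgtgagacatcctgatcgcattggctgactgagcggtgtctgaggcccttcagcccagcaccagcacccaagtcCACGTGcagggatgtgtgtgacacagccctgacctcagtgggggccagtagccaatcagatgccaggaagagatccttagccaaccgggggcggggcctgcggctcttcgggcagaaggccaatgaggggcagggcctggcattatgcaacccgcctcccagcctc
Cry1: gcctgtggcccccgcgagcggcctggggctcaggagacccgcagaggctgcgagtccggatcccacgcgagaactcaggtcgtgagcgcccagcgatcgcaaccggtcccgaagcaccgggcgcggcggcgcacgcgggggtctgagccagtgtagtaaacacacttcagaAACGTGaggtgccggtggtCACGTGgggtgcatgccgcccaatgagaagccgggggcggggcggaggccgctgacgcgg
Nr1d1: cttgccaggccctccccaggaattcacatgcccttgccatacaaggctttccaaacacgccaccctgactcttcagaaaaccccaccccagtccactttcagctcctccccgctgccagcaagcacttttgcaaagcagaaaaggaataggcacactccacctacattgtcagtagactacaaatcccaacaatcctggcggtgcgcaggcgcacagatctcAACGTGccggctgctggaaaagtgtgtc
Per3: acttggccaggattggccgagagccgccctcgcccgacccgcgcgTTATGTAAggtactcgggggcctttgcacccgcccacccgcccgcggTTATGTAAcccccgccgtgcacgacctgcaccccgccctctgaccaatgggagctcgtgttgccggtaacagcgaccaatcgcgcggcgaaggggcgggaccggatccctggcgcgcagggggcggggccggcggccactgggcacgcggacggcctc
Dbp: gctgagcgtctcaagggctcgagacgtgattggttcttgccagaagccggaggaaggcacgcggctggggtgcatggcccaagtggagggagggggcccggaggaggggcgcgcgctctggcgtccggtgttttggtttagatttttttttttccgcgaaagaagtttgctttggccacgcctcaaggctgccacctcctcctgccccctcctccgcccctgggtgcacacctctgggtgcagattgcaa

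For Arntl, the gene on which REV-ERB and ROR receptors act, 1 of 2 annotated starts had a match, a ROR element core that begins 31 bases into the transcript. The site is printed with its flanks (chr7:113207530-113207558, plus strand).
Arntl: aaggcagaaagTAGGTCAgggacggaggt

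Cry2 held a variant E-box 166 bases before its start, and the windows of Clock and Nr1d2 held none of these motifs. Among all 32851 windows of the table, the E-box was in 7.15%, the variant E-box in 4.68%, the D-box core in 2.32%, the ROR element core in 2.61% and the cAMP response element in 1.79%. A match describes these letters in this window and was not read as a bound site.

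Fto, the overexpressed gene, had 1 probe, with a signal of 7301 for FTO and 5179 for control before normalization. Its normalized log2 difference was 0.06, less than its spot error of 0.20 (the error that the scanner software gives for both spots). Whether this probe lies in the inserted coding sequence was not examined. The arrays are therefore named as labelled, and the direction of each difference depends on the labels being right. Of 39417 probes, 82.0% (FTO) and 84.9% (control) were well above background, and no spot was saturated. All 10 beta cell markers were well above background on both arrays, with 4 above 0 and 6 below. Their normalized log2 differences ran from -0.24 (Ins2) to 0.45 (Slc2a2), and Ins1 was at -0.14. The insulin values depended on the scaling, and with 75th percentile scaling Ins2 was at -0.64 and Ins1 at -0.46, with 2 of the 10 markers above 0. All 10 markers of other cells were also well above background on both arrays, among them the glucagon gene Gcg with signals of 257400 and 243600, and none was at 0. In that list 4 were above 0 and 6 below, from -0.72 (Amy2a5) to 0.29 (Cpa1), and with 75th percentile scaling these 2 genes were at -1.002 and 0.0086. With normexp, Amy2a5 was at -0.33 and none of these markers was past 1.5-fold. Before normalization, when the median probe was 0.34 higher for FTO on the log2 scale, the summed signal of the beta cell markers was 1173944 (FTO) and 1154928 (control). That of the other markers was 275763 and 257763, nearly all of it from Gcg. The part of these markers in the clock gene values was not tested.

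The log2 differences of the clock genes, FTO minus control, lay between -0.31 (Nr1d1) and 0.25 (Clock) after quantile normalization. None of the 10 genes differed by more than 2-fold, where 2.68% of the 18513 named genes tested did, and none by more than 1.5-fold, where 6.96% of the genes did. With 10 genes, a count of 0 is near these shares and does not set the members apart. Their median was -0.08, with 4 genes above 0 and 6 below. Over all named genes tested the median was 0.0064 and 51.6% lay above 0, and the middle 95% of genes lay between -0.79 and 0.62. In RNA of whole cultures, fewer cells with a transcript and less transcript per cell cannot be told apart.

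Error within the arrays was taken from a pair of sources. The error model of the Feature Extraction software gave a spot error of 0.20 on the log2 scale for the difference of each member except Per3, at 0.28. For the bright members this value hardly changed with signal, from 0.2040 for Clock to 0.2043 for Nr1d1. It comes from the model and was not measured from repeated spots. The other source was the 399 probes printed 10 times on each array, whose spots at the same position were compared between the arrays. For repeated probes of similar signal the SD of such differences was between 0.05 and 0.08 for the bright members and 0.30 for Per3. Neither error covers the spread between cultures, hybridizations or times of collection. Of the 11 probes, 4 differed by more than their spot error, those of Clock and Nr1d1 and both of Dbp, beside 32.4% of all 33844 probes tested. A difference of more than 2 SD of the repeated spots was found for 6 of the 11, beside 32.3% of all probes tested. Passing these limits was thus common on these arrays.

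The activators had differences of opposite sign. Signals are given before normalization, with FTO first and control second. Clock (NM_007715), whose protein is the partner of BMAL1, had signals of 12860 and 8030. Its log2 difference after normalization was 0.25, the highest of the members and above both the spot error of 0.20 and the repeated-spot SD of 0.05. Arntl (NM_007489), which encodes BMAL1, had signals of 4693 and 3905 and a normalized log2 difference of -0.15, below the spot error and above the repeated-spot SD of 0.05. The gap between Clock and Arntl was 0.40, against a combined spot error of 0.29 and a combined SD of repeated spots of 0.07. Signals before normalization were higher on the array labelled FTO for 10 of the 11 probes, as the median probe was, a shift that normalization removed.

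The Clock spot lies in an area of the array labelled FTO where repeated spots of low to middle signal had lost signal, and so does the Cry1 spot. Both have signals above those of the repeated probes that marked this area, and the SD of repeated spots was taken outside it. The 2 blocks that lost signal on the array labelled control lie elsewhere and hold no member. In the Clock block, 33 repeated spots of similar signal had a median deviation of 0.04 from the mean difference of their probes, and 150 other probes of similar signal had a median log2 difference of 0.04. Against that block median the Clock difference was 0.2024, no longer above its spot error of 0.2040. Set against the medians of their own blocks in the same way, Nr1d1 was at -0.31 and the Dbp probes at -0.27 and -0.23, still past 0.20. In the Cry1 block the 136 other probes of similar signal had a median of 0.05. The part of the array surface in these differences was not tested further.

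**Figure D1:**
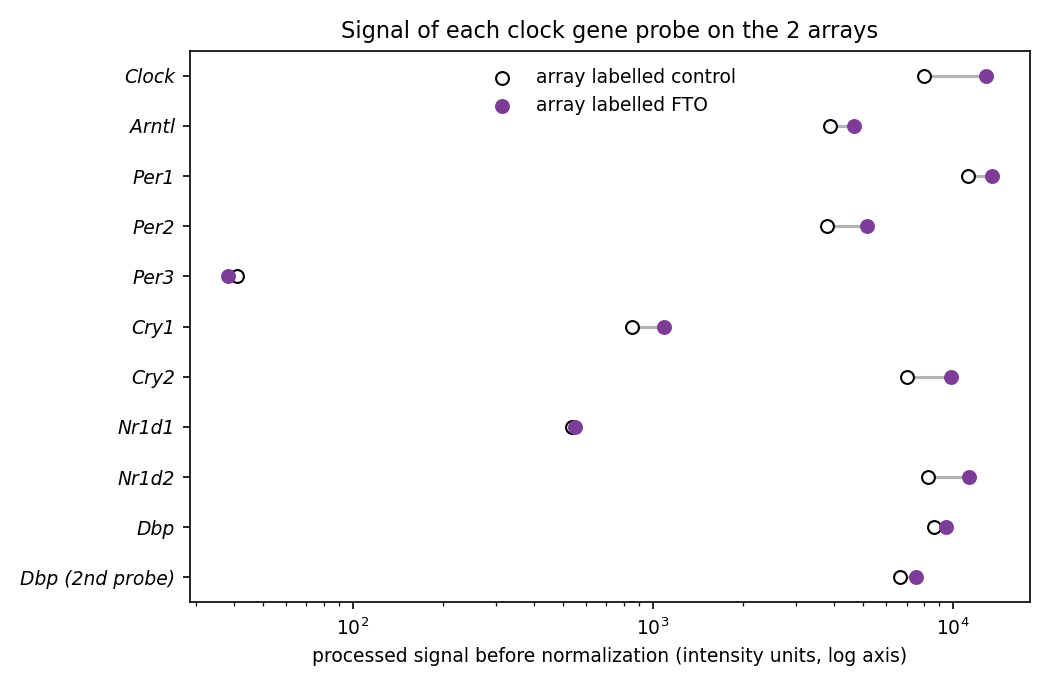
Processed signal of each of the 11 clock gene probes before normalization, on a log axis, with open circles for the array labelled control and filled circles for the array labelled FTO (1 array each). Signals were higher on the array labelled FTO at every probe except that of Per3, which was also dim, and levels are not comparable between probes.

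After quantile normalization all 5 repressors differed by less than their spot errors, and Per1 was the only 1 of them past 2 SD of the repeated spots. Per1 passed its spot error of 0.20 with normexp, at -0.22. Per3 passed its spot error of 0.28 with 75th percentile scaling, at -0.53. Per1 (NM_011065), a PERIOD gene that also responds quickly to cAMP and glucocorticoids, had signals of 13440 and 11240 and a normalized log2 difference of -0.18. That is under its spot error of 0.20, and 3.38 times the repeated-spot SD. Per2 (NM_011066), the PERIOD gene whose protein is a main brake on CLOCK and BMAL1, had signals of 5150 and 3811 and a normalized log2 difference of 0.02. The gap between Per1 and Per2 was 0.20, within the combined spot error of 0.29.

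Per3 (NM_011067), the PERIOD gene least needed for rhythm, was dim. Its signals were 38.3 and 41.1, above the lowest signals called well above background (13.1 and 10.1). Its normalized log2 difference of -0.20 was smaller than both its spot error of 0.28 and its repeated-spot SD of 0.30, so a difference of this size was not detectable at this signal. Its value also depended most on the processing, and it was -0.53 when each array was scaled by its 75th percentile.

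The CRYPTOCHROME genes, whose proteins give the loop its strong repression, were nearly level. Cry1 (NM_007771) had signals of 1088 and 849.8 and a normalized log2 difference of -0.02. Cry2 (NM_009963) had signals of 9830 and 7017 and a normalized log2 difference of 0.06. Both are within the spot error of 0.20, and both turned sign under normexp background correction, to 0.01 for Cry1 and -0.03 for Cry2. The median of the repressor arm was -0.02, with 2 of 5 genes above 0.

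The lowest values were in the REV-ERB and output genes. Nr1d1 (NM_145434) had signals of 551.6 and 538.3, and a normalized log2 difference of -0.31, a 1.24-fold lower level on the array labelled FTO. This was above its spot error of 0.20 and 3.93 times its repeated-spot SD of 0.08. Nr1d2 (NM_011584), its paralogue, had signals of 11340 and 8264 and a normalized log2 difference of 0.03. The gap between the REV-ERB genes was 0.34, against a combined spot error of 0.29 and a combined repeated-spot SD of 0.10.

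Dbp (NM_016974) was the only member with a second probe to compare. The brighter probe had signals of 9444 and 8637, and a normalized log2 difference of -0.30, a 1.23-fold lower level. The other probe, at another place on the array, had signals of 7504 and 6667 and a normalized log2 difference of -0.26. The probes differed from each other by 0.04, within their combined repeated-spot SD of 0.08. Both were above the spot error of 0.20, and they measured the same RNA on the same arrays, so they are not replicates of the condition. Between Clock, the highest member, and Dbp, the lowest after Nr1d1, the gap was 0.54 against a combined spot error of 0.29.

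**Figure D2:**
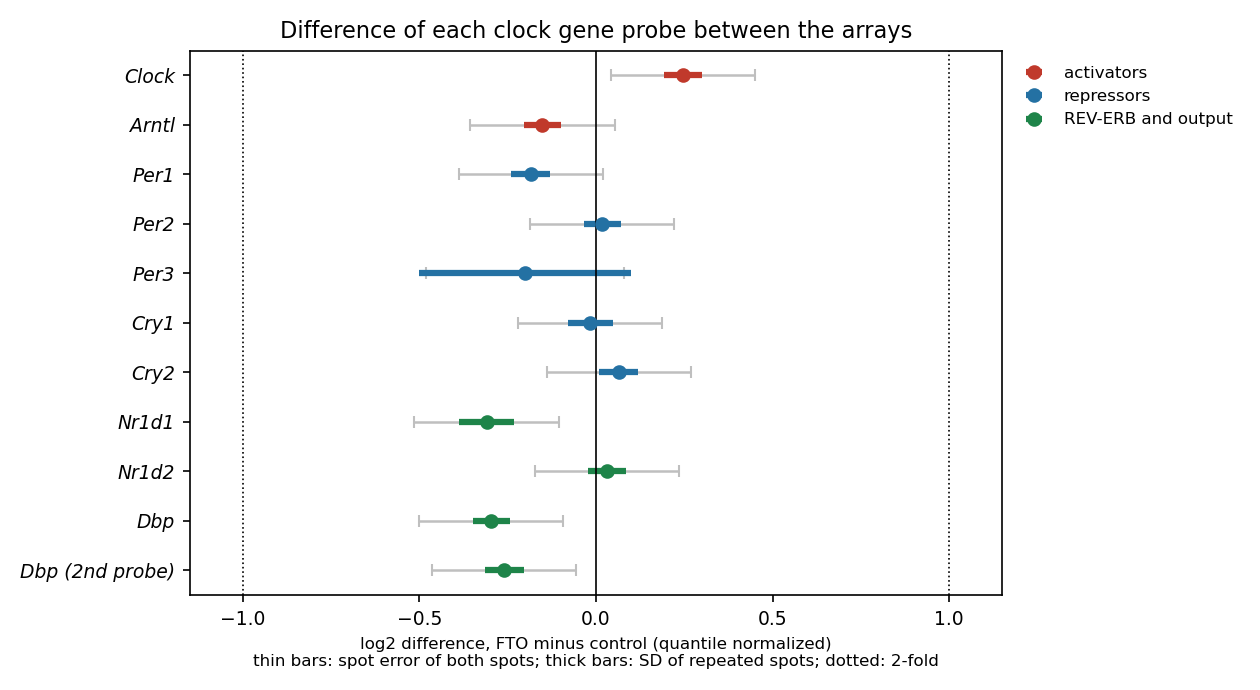
Log2 difference, FTO minus control, of each clock gene probe after quantile normalization, with thin bars for the spot error of both spots and thick bars for the SD of repeated spots of similar signal. Clock lies at 0.25 and Nr1d1 and both Dbp probes lie between -0.31 and -0.26, with all probes far inside the dotted lines that mark 2-fold.

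With 1 exception, the members lay within the spread of other probes of similar signal. Around the signal of Clock, the middle 95% of 2627 tested probes lay between -0.29 and 0.27, and Clock at 0.25 lay inside that range. Around the signal of Nr1d1 the range was -0.56 to 0.42 over 2239 probes, and Nr1d1 lay well inside it. Around the brighter Dbp probe the range was -0.29 to 0.28 over 2695 probes, and this probe, at -0.2961 against a lower limit of -0.2897, was the only 1 of the 11 that lay outside its range. The other Dbp probe lay inside its own range of -0.31 to 0.29.

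**Figure D3:**
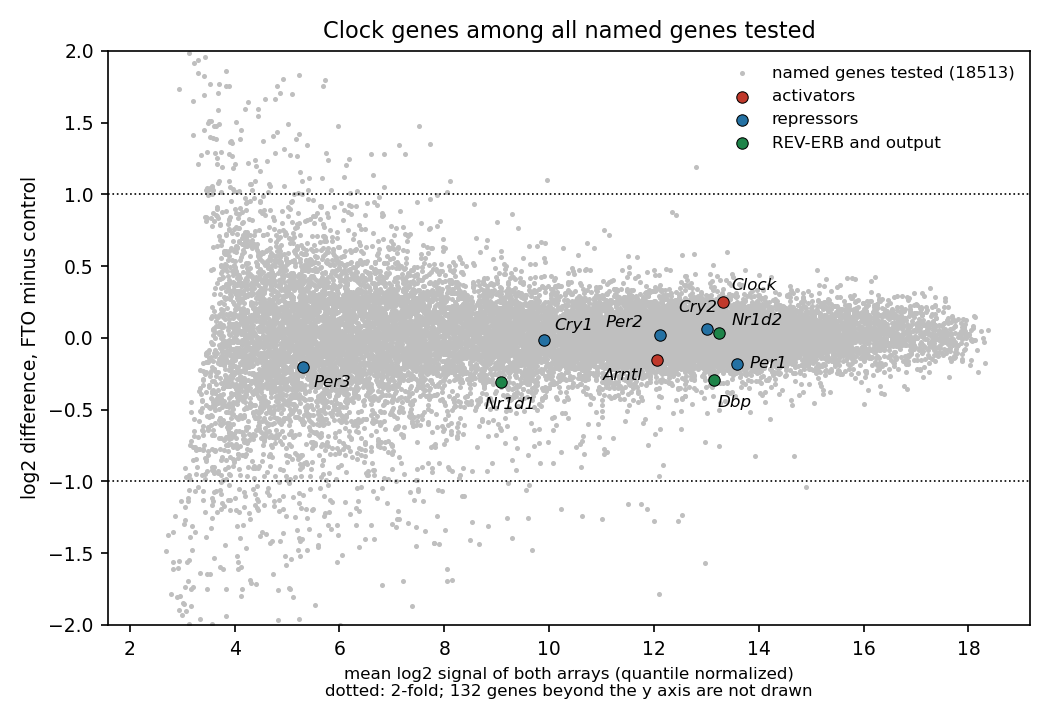
Log2 difference, FTO minus control, against the mean log2 signal of both arrays for the 18513 named genes tested (grey) and the 10 clock genes (colored by arm), each by its brightest probe. The clock genes sit in the body of the cloud between -0.31 and 0.25, and 132 genes beyond the vertical axis are not drawn.

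The activator and repressor arms showed neither a shared nor an opposed direction across their genes. The mean of the activators was 0.05, from 1 gene above 0 and 1 below. With the blocks of the arrays that lost signal omitted, Clock and Cry1 drop out, so that Arntl alone gives -0.15 for the activators. The median of the other 4 repressors was then -0.08 and that of the other 8 members -0.17. With all members, the medians were -0.02 for the repressors and -0.30 for the REV-ERB and output genes, of which Nr1d2 was above 0. Under scaling by the 75th percentile, cyclic loess, normexp and the authors' deposited log2 values, Clock stayed between 0.21 and 0.26, Arntl between -0.17 and -0.12, Per1 between -0.22 and -0.16, Nr1d1 between -0.39 and -0.26 and Dbp between -0.31 and -0.30. Nr1d2 stayed at 0.03. The authors' values were quantile normalized too, so they repeat much of the same processing. Per2 turned sign only under cyclic loess, at -0.0036.

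**Figure D4:**
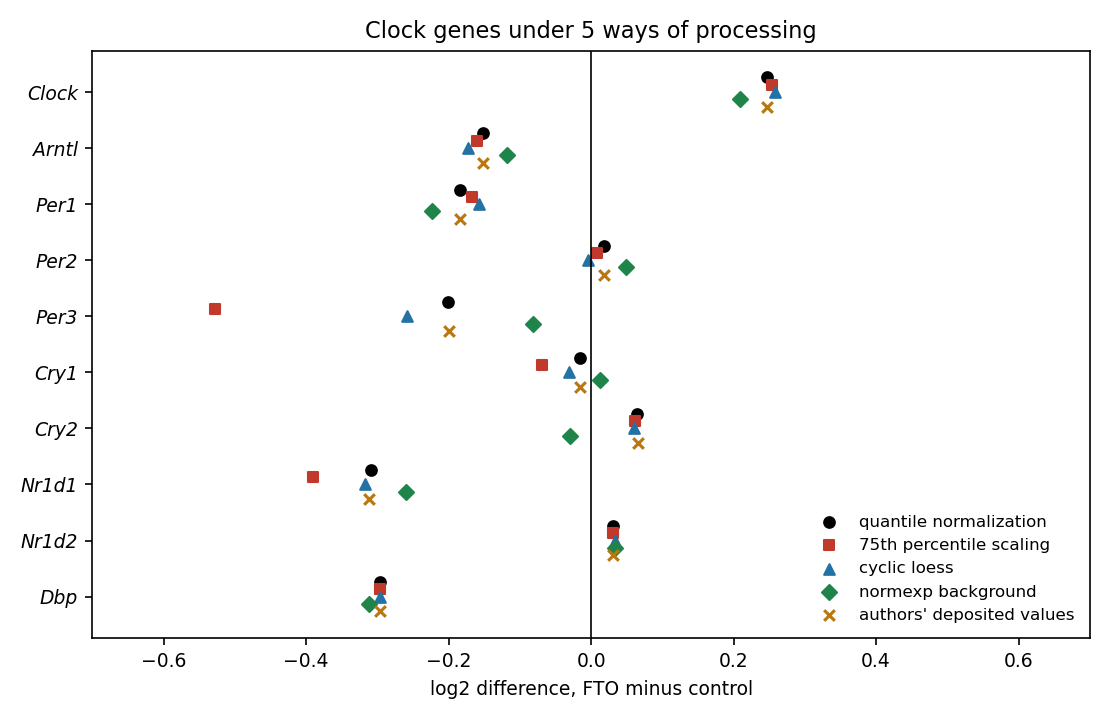
Log2 difference, FTO minus control, of each clock gene by its brightest probe under quantile normalization and 4 other ways of processing. The symbols of most genes lie close together, while those of Per3 spread from -0.53 to -0.08.

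Genes that work with the core loop were examined in 6 lists of 43 genes in all, each gene by its brightest probe, and all 43 were tested. By that probe none differed by more than 1.5-fold, against 6.96% of all named genes tested. That share was not matched for signal, and the spread of differences was wider among dim probes. Around the dim signal of Per3 the middle 95% of probes lay between -1.12 and 0.85, and around that of Clock between -0.29 and 0.27. A count of 0 therefore does not set these 43 genes apart. Their median was 0.0054, with 22 genes above 0 and 21 below. Of these genes 20 had several probes tested, and for 10 of them the probes differed in sign, so the counts above and below 0 depend on the probe chosen. The second probe of Alas1, which encodes the first enzyme of heme synthesis, was at -0.59, past 1.5-fold. Within each list the gene with the highest and the gene with the lowest value is named, and further genes were chosen after their values had been seen.

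Of the 4 genes that encode repressors acting at E-boxes, 3 were below 0. Ciart, which encodes a repressor of CLOCK and BMAL1, had signals of 1775 and 1783 and a normalized log2 difference of -0.40, the lowest of the 43 and above its spot error of 0.20. Bhlhe40 and Bhlhe41, which encode the E-box binding repressors DEC1 and DEC2, were at -0.19 and -0.18, within their spot errors of 0.20. The other probe of Bhlhe41 was at 0.32, so that the count below 0 rests on the brighter probe. With 75th percentile scaling Bhlhe40 and the brighter Bhlhe41 probe were at -0.22 and -0.26, past their spot errors. With normexp they were at -0.14 and -0.20, within them. Cipc, which encodes a CLOCK-interacting repressor, was at 0.17. The median of this list was -0.19. Under the 4 other ways of processing, Ciart lay between -0.53 and -0.40.

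The partner paralogues and ROR receptors lay close to 0 after quantile normalization. Rora, an activator of Arntl, was highest of 5 at 0.12 and Rorb was lowest at -0.07, and the median was -0.01, or -0.20 with 75th percentile scaling. Npas2, a paralogue of Clock, had signals of 13.7 and 13.9, and the former did not pass as well above background. Its value of -0.01, the median of this list, therefore stands on a bound for FTO. Among the D-box factors, Hlf was at 0.03 and Tef, its relative, at 0.0054. Nfil3, which encodes the repressor that competes with DBP at D-boxes, was at -0.20, within its spot error of 0.20.

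The list of kinases, ubiquitin ligases and the deubiquitinase Usp2, which set the stability of clock proteins, had a median of 0.10. In it 9 of 12 genes were above 0. Btrc, an F-box protein that targets PERIOD proteins for degradation, had signals of 2556 and 1519 and a normalized log2 difference of 0.35, above its spot error of 0.20, while its other probe was at 0.13. Fbxl21 was lowest at -0.07, and it was dim, with signals of 20.6 and 20.9. Its value was -0.44 with 75th percentile scaling and 0.09 with normexp, and its other probe was at 0.20, so it has no settled direction. The casein kinase genes Csnk1d and Csnk1e were at 0.03 and 0.15, but their other probes were at -0.12 and -0.33. In this list 7 of the 9 genes with several probes had probes of both signs. By their brightest probes, 4 of the 12 genes lie in the area of the array labelled FTO that lost signal. Fbxl21, Csnk1d and Csnk1e are among them.

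Among 11 coregulators the median was -0.04, with Ep300, an acetyltransferase, highest at 0.32 and Crebbp, its paralogue, lowest at -0.20. Among 8 clock-controlled output genes the median was -0.0038, with Por, the electron donor of P450 enzymes, highest at 0.19 and Cdkn1a, a cell cycle inhibitor, lowest at -0.26. Ciart, Btrc, Ep300 and Cdkn1a were the 4 of the 43 genes that differed by more than their spot error after quantile normalization, as did 28.6% of all named genes tested. This count depended on the scaling. With 75th percentile scaling, 3 of the 4 E-box repressors and 4 of the 8 output genes passed, against 1 in each of these lists after quantile normalization. With cyclic loess 2 and 4 of them passed, and with normexp 1 and 2. The share of all named genes under these alternatives was not computed, so these counts do not set the lists apart.

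Because clock genes respond to serum, cAMP and growth, 3 lists of culture state were set beside them. Of 12 serum and cAMP responsive genes 11 were below 0, with a median of -0.17, and the count was the same under the 4 other ways of processing. Of these genes 7 differed by more than their spot error, beside the 28.6% of all named genes. Among the 7 were Crem, the only gene above 0, at 0.21 against a spot error of 0.20, and Fos at -0.11, whose spot error was 0.07. Atf3, a stress-induced factor named here because it was past 1.5-fold, had signals of 3321 and 3792 and a normalized log2 difference of -0.60. Of 10 proliferation genes 8 were above 0, with a median of 0.11, but 6 were with 75th percentile scaling and all 10 with cyclic loess. Their median was 0.05 with 75th percentile scaling, 0.07 with normexp and 0.10 with cyclic loess. The 6 glucocorticoid responsive genes were divided evenly around a median of -0.04, and 5 of them lie in the area of the array labelled FTO that lost signal. None of the 28 genes differed by more than 2-fold after quantile normalization. The part of culture state in the clock gene values was not tested, and with 1 array per condition it cannot be told apart from the FTO insert.

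**Figure D5:**
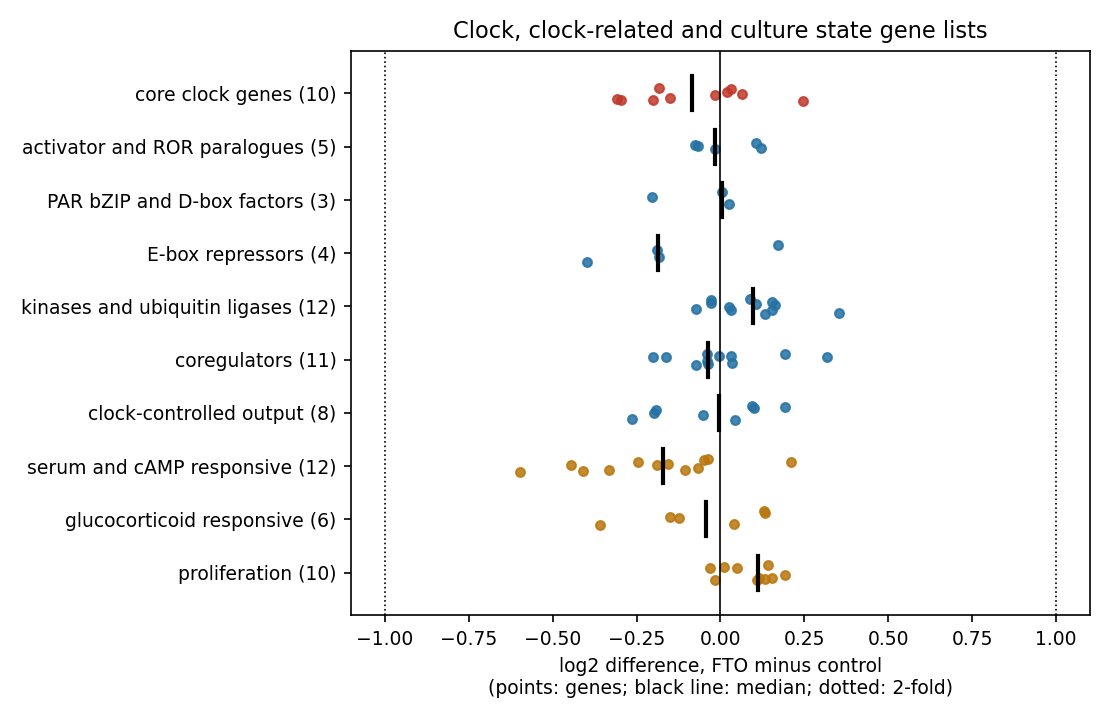
Log2 difference, FTO minus control, of the 10 core clock genes, 6 lists of clock-related genes and 3 lists of culture state, with 1 point per gene and a black line at the median of each list (number of genes in parentheses). After quantile normalization the medians lie between -0.19 for the E-box repressors and 0.11 for the proliferation genes, and no point reaches the dotted lines that mark 2-fold.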

How the data were processed

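Total RNA of MIN6 cells was labeled with Cy3 and hybridized to one-color Agilent arrays, 1 per condition. The authors deposited spot intensity values from Feature Extraction 11.0.1.1, with background subtracted and not normalized between arrays, and a table of log2 values of 33870 probes that was quantile normalized in GeneSpring GX 11.5. Outlier spots (148 and 141) and control spots were left out. Log2 intensities were averaged per probe and then brought to the same quantiles by limma 3.58.1 (R 4.3.3). This step was tested on simulated data with planted changes larger than any difference of the members. Differences of the size seen in the members were not simulated. Further steps used Python 3.11.15, pandas 2.3.3 and numpy 2.4.6, and figures matplotlib 3.10.9. A gene was tested where 1 array or both showed a probe well above background (for repeated probes, in 50% of spots) and took the value of its brightest probe. Genes past 2-fold were called. Accessions gave symbols to 27224 probes through the annotation of GRCm38.p6. The spot tables hold no gene names or mean signal, so the median signal was used for normexp with an offset of 50. Probes of similar signal lay within 0.5, and repeated probes within 1, on the log2 scale. The surface was read in rectangles (blocks) 76 rows high and 17 columns wide, and a block was taken to have lost signal if 15% or more of its spots of 79 repeated probes fell over 0.5 (log2) short of the probe median. Named were the members, the highest and lowest gene of each clock-related list, Fto, Ins1 and Ins2, with further genes chosen after their values were seen. The members and lists were chosen with earlier results of these data known. The alternatives were 3 other normalizations or background corrections, the authors' values, 2 other filters, a floor, 2 other probe rules, the blocks left out and a lower threshold.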

Additional observations from a re-analysis of the deposited data

How the results depend on the processing

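No clock gene and no clock-related gene with a value differed by more than 2-fold under any of the 10 alternatives of processing, and by their brightest probes none passed 1.5-fold after quantile normalization. Of the 43 clock-related genes, 42 had a value with the stricter filter and 38 without the blocks that lost signal. Among the alternative values for single members and their count above 0, 115 stayed within the spot error (the count within 1.5 times) and 1 did not, Per3 at -0.53 with the 75th percentile scaling. The signs of Per2, Cry1 and Cry2 turned within that error, each under 1 alternative. Clock and Cry1 have no value without those blocks, and the activator mean then turns from 0.05 to -0.15, the value of Arntl alone. The count of all named genes past 2-fold, 497, was 55 with normexp, 218 if both arrays had to be well above background, 891 with no filter, 331 with dim signals raised to the floor, 262 with the blocks left out and 1288 at 1.5-fold. The count of 1288 reflects the lower threshold, and the cause of the other changes was not tested. Fewer genes were tested with the stricter filter (17740) and without the blocks (15135), and the part of this in their counts was not tested either. No paired analysis was possible because there was 1 array per condition, and leaving out an array was not possible either. Precision is limited by the number of arrays and, for Per3, by a dim signal.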
